A study of Bos taurus with 20 samples.

Results

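bta-miR-103 and bta-miR-107, the 2 bovine miRNAs of the family named after them, were taken by name from a table of 1029 miRNAs measured in bull spermatozoa. Spermatozoa of 20 mature Holstein-Friesian bulls used in artificial insemination were examined, 10 with a high (HF) and 10 with a low (LF) adjusted fertility score, and neither group received a treatment. All ejaculates had passed the AI centers' checks of motility and morphology, so that both groups had apparently normal semen. Frozen-thawed straws of several ejaculates were pooled for each bull, somatic cells were lysed, and 1 small RNA library was made per bull. Each value is therefore an average over ejaculates of a bull, and in such pooled RNA fewer cells carrying a miRNA and less of it per cell cannot be told apart.

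miRNAs are short RNAs that guide Argonaute proteins to mRNAs, mainly through the seed (bases 2 to 8 of the mature miRNA), and lower the output of the mRNAs they pair with. miR-103 and miR-107 have the same seed and are near-identical, differing near the 3′ end. They are known for targeting DICER1, which cuts miRNA precursors, CAV1, through which they affect insulin signaling in liver and fat, and the cell cycle kinase gene CDK6. miR-103 is also often chosen as a reference miRNA in RT-qPCR because its level varies little between many tissues.

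The genes of both miRNAs lie inside genes of pantothenate kinases, the enzymes of the first step of coenzyme A synthesis. In the RefSeq annotation of the ARS-UCD2.0 assembly, MIR103-1 lies within PANK3 on chromosome 20, MIR103-2 within PANK2 on chromosome 13 and MIR107 within PANK1 on chromosome 26. The mature miR-103 made from MIR103-1 and MIR103-2 is counted as bta-miR-103 in either case, so its level cannot be split between PANK3 and PANK2. Levels of the host mRNAs were not analysed here.

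Levels are given as TMM-normalized counts, which are counts divided by library size and by a factor that offsets differences in composition, on the scale of CPM. The reads behind them were recovered by dividing by the value of 1 read in each library. This value was the largest low value of which a share of at least 0.9 of all values above 0 were whole multiples, refined over the low values. The libraries held between 103204 and 3097581 miRNA reads in HF bulls and between 310186 and 1640178 in LF bulls, with medians of 1092881 and 1085742. Of the markers of germ cells, 5 of 5 were measured in every library, at a summed level of 32093 to 77203 in HF and 25829 to 54584 in LF bulls. Blood cell markers summed to 65.9 to 239 in HF and 51.2 to 301 in LF bulls, with bta-miR-144 counted in 5 libraries by at most 2 reads. Epithelial markers summed to 6544 to 13138 in HF and 9680 to 15554 in LF bulls, and muscle markers to 119 to 1591 and 102 to 1985. Markers of the labelled cell type were thus abundant, and the defining epithelial markers were present beside them. The study's own RT-PCR saw no amplification of CDH1 for epithelial cells, PTPRC for leukocytes or KIT for germ cells. The paper also states that sperm gain non-coding RNAs from epididymosomes during epididymal transit. The source of the epithelial marker miRNAs was not tested.

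Both members were counted in all 20 bulls. By mean level, 106 of the 1029 miRNAs stood above bta-miR-103 and 132 above bta-miR-107. bta-miR-103 made up 0.0290% ± 0.00546 (SD, n = 20 bulls) of the normalized counts and bta-miR-107 0.0149% ± 0.00319 (SD, n = 20). Both were therefore minor components of a population in which bta-miR-100 held 39.9% ± 4.11 (SD, n = 20).

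The level of bta-miR-103 was 291 ± 58.3 (SD, n = 20), on a median of 304 reads per library and between 23 and 1020 reads. In HF bulls its lowest level was 211, its median 301 and its highest 407. In LF bulls the lowest was 248, the median 259.5 and the highest 325. The HF bulls thus enclosed the LF bulls on both sides, with 4 HF bulls above and 2 below every LF bull.

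The level of bta-miR-107 was 149 ± 32.3 (SD, n = 20), on a median of 153 reads and between 11 and 557 reads. HF bulls ran from a lowest level of 101 over a median of 152 to a highest of 222. LF bulls ran from 92.1 over a median of 142 to 179. The groups overlapped over most of their range, with 2 HF bulls above all LF bulls and 1 LF bull below all HF bulls.

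**Figure D1:**
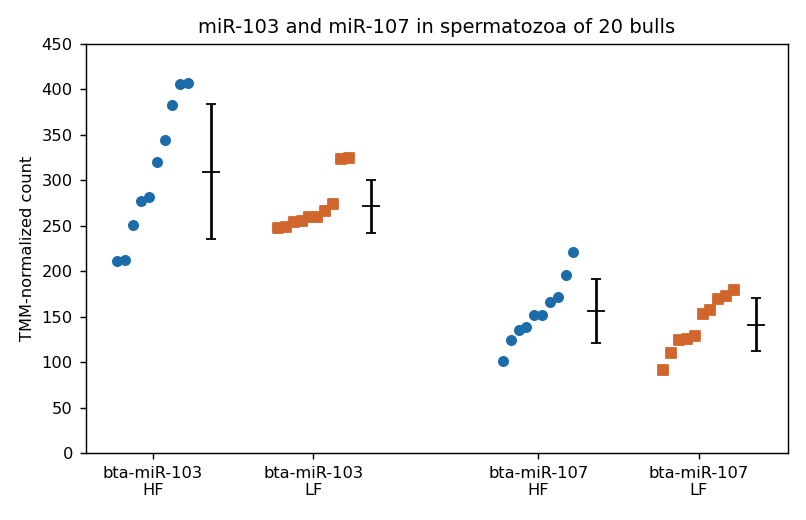
TMM-normalized count (y axis, linear from 0) of bta-miR-103 and bta-miR-107 in each of the 10 HF bulls (circles) and 10 LF bulls (squares), sorted by level within a group, with mean and SD as the bar to the right. HF bulls spread from 211 to 407 for bta-miR-103 and LF bulls from 248 to 325, while the groups overlap widely for bta-miR-107.

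In the order of mean levels, the direct neighbours of both members could not be separated from them. bta-miR-103 lay between bta-miR-2285at at 291 ± 133 (SD, n = 20) and bta-miR-125a at 289 ± 224 (SD, n = 20), and was the higher of the pair in 12 of 20 bulls in both cases. bta-miR-107 lay between bta-let-7d at 150 ± 47.9 (SD, n = 20) and bta-miR-217 at 145 ± 45.4 (SD, n = 20), and was higher than each of them in 11 of 20 bulls. All 4 neighbours varied more between bulls than the member beside them.

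Whether the family differed with fertility was asked with limma on log2(normalized count + 1) over the 435 miRNAs that passed a filter on low levels. bta-miR-103 averaged 310 ± 74.4 (SD, n = 10) in HF against 271 ± 28.8 (SD, n = 10) in LF, and 7 of 10 HF bulls exceeded the LF median. limma gave a log2 fold change, HF over LF, of 0.16 (95% interval -0.15 to 0.46, standard error 0.15, p = 0.30, adjusted p = 0.96). bta-miR-107 averaged 156 ± 35.0 (SD, n = 10) in HF against 141 ± 29.3 (SD, n = 10) in LF, and 6 of 10 HF bulls exceeded the LF median. Here limma gave a log2 fold change of 0.14 (95% interval -0.21 to 0.49, standard error 0.17, p = 0.42, adjusted p = 0.96).

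Neither difference had an unadjusted p-value under 0.05 in limma. Both intervals include 0, and both end under 0.585, the log2 of the 1.5-fold change used as a threshold, so that a higher level in HF bulls by that fold lies outside them. Of all 435 miRNAs tested, 15 (3.45%) had an unadjusted p-value under 0.05 in limma, 7 (1.61%) of them higher and 8 (1.84%) lower in HF bulls, 9 (2.07%) also had a fold change over 1.5, and 0 had an adjusted p-value under 0.05, which DESeq2 and both edgeR tests also gave. 0 of 2 members passed either threshold.

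Because the members are near-identical, reads that end before the base at which they differ fit either of them, and how the counting split such reads was not tested. All 40 values of the members were whole numbers of reads. Some other entries held equal levels, such as bta-miR-124a and bta-miR-124b, both at 56.1 with an SD of the log2 level of 0.71. Equal levels arise where the same reads are counted on both entries. Whether reads were counted on both bta-miR-103 and bta-miR-107 was not tested. The summed level does not depend on the split, unless a read was counted on both. It averaged 466 ± 103 (SD, n = 10) in HF against 413 ± 49.9 (SD, n = 10) in LF, and 8 of 10 HF bulls exceeded the LF median. The difference of the means, 0.15 on the log2 scale, was not significant (permutation test, two-sided, with 100000 resamples, p = 0.21). It was 0.21 without HF replicate 17, the shallowest library (permutation test, p = 0.065), and 0.098 without HF replicate 2, the deepest (permutation test, p = 0.38).

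Some marker miRNAs of other cell types were lower in HF bulls without passing the adjustment. All 6 epithelial markers had a negative log2 fold change, and 2 reached an unadjusted p-value under 0.05 beside 1.84% of all miRNAs in that direction. These were bta-miR-429 (log2 fold change -0.47, p = 0.014) and bta-miR-200a (log2 fold change -0.28, p = 0.040), both with an adjusted p-value of 0.94 from limma. Of the germ cell, blood cell and muscle markers tested, 0 had an unadjusted p-value under 0.05. The log2 fold change was positive, as for both members, for 5 of 5 germ cell markers (median 0.20), 4 of 4 muscle markers tested (median 0.35) and 3 of 5 blood cell markers tested (median 0.14), where the median over all miRNAs was 0.0051. The part of these cells in the levels of bta-miR-103 and bta-miR-107 was not tested.

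The ratio of bta-miR-103 to bta-miR-107 is free of library size and normalization factor, though reads counted on both would pull it towards 1. It was above 1 in every bull, with a lowest value of 1.64, a median of 1.93 and a highest of 2.52 in HF bulls, and a lowest of 1.45, a median of 1.91 and a highest of 2.82 in LF bulls. The HF values lay within the LF range. On the log2 scale the ratio averaged 0.98 ± 0.23 (SD, n = 10) in HF against 0.96 ± 0.28 (SD, n = 10) in LF. The difference of 0.018 was far smaller than either SD, and it was not significant (permutation test, two-sided, p = 0.87). In the 17 libraries of at least 500000 reads its sign turned, to -0.035 (permutation test, p = 0.78).

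**Figure D2:**
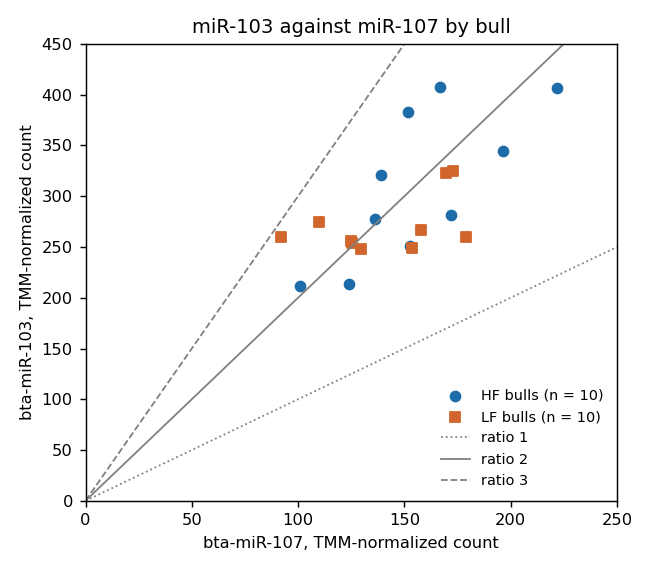
TMM-normalized count of bta-miR-103 (y axis) against that of bta-miR-107 (x axis), 1 point per bull, HF as circles and LF as squares, with lines at ratios of 1, 2 and 3. All 20 bulls lie between the lines for 1 and 3, with a median ratio of 1.91, and the HF and LF points intermingle along the line for 2.

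With each read taken as a separate molecule, the split of reads between the members still varied more than counting alone gives. Over all libraries, 66.6% of the reads of both were counted on bta-miR-103. The share was lowest in LF replicate 11, at 59.2% (95% Wilson interval 50.9% to 66.9%, 142 reads of both), and highest in LF replicate 8, at 73.8% (69.5% to 77.7%, 439 reads). In 6 of 20 libraries the interval did not hold the pooled share. The SD over bulls was 3.88 percentage points, where counting gives 2.95 as the root mean square over libraries of these depths. Chi-square per degree of freedom over the 20 libraries was 3.31. These intervals take in the counting error of reads alone. Reads copied by PCR are no separate molecules and would make the intervals too narrow, and their part in the variation of the split was not tested. The intervals and chi-square also assume that no read was counted on both members.

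The levels of the members rose and fell together over the bulls. Between bta-miR-103 and bta-miR-107, Pearson's r of the log2 levels was 0.65 (permutation p = 0.0021) and Spearman's rho 0.61 (permutation p = 0.0050) over the 20 bulls. Adjusted over the 3 relations examined, these p-values were 0.0064 and 0.015. Without HF replicates 2 and 12, the bulls farthest from the median of bta-miR-103, r was 0.55 (permutation p = 0.017). Within the HF bulls r was 0.77 (permutation p = 0.0092) and within the LF bulls 0.44 (permutation p = 0.21), so the relation held in HF bulls and was not resolved in LF bulls. Whether the relation differed between the groups was not tested. The points share the library, its normalization factor and possibly reads.

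Library depth moved with the level of bta-miR-103 as well. Between the log2 of recovered reads and its log2 level, r was 0.57 (permutation p = 0.0080, adjusted p = 0.012 over the 3 relations) and rho 0.43 (permutation p = 0.058). Without HF replicate 17 and LF replicate 11, the 2 shallowest libraries and the farthest from the median depth, r was 0.46 (permutation p = 0.056), so that the relation rests in part on these libraries. Within HF bulls r was 0.68 (permutation p = 0.023) and within LF bulls 0.13 (permutation p = 0.78). Over the 435 miRNAs the median r with depth was 0.15, and bta-miR-103 was at position 41 from the highest. For bta-miR-107, r with depth was 0.32 over all bulls (permutation p = 0.17), 0.72 within HF (permutation p = 0.019) and -0.43 within LF bulls (permutation p = 0.21). In the 17 libraries of at least 500000 reads, which still ran from 503974 to 3097581 reads, r between the members was 0.63 (permutation p = 0.0059). The part of depth in the relation between the members was not tested.

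**Figure D3:**
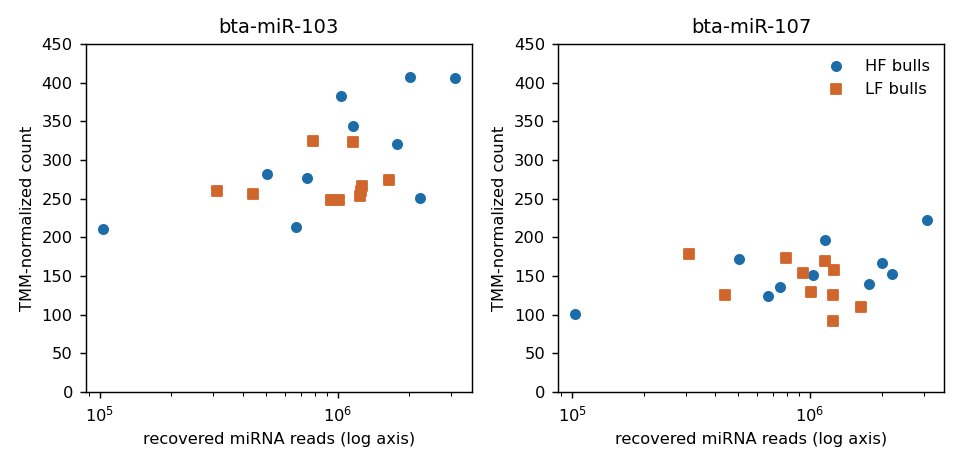
TMM-normalized count of bta-miR-103 (left) and bta-miR-107 (right) on the y axis against the recovered miRNA reads of the library (x axis, log scale), HF bulls as circles and LF bulls as squares. HF bulls cover depths from 103204 to 3097581 reads and rise with depth for both members, with r of 0.68 and 0.72, while LF bulls show r of 0.13 and -0.43.

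Both members varied little between bulls beside most other miRNAs. The SD of the log2 level over the 20 bulls was 0.28 for bta-miR-103 and 0.32 for bta-miR-107, while the median over the 435 miRNAs was 0.70. Counted from the smallest SD, bta-miR-103 was at position 19 and bta-miR-107 at position 36 of 435. Rare miRNAs have larger SDs from counting alone, so the comparison was repeated within the 160 miRNAs with a mean level of 100 or more. The median SD there was 0.44, and the members were at positions 18 and 32 of 160. Counting gives an SD of about 0.11 for bta-miR-103 and 0.15 for bta-miR-107 at these depths. The study's methods name bta-miR-125, without its letter, as reference miRNA for RT-qPCR, chosen because earlier work had found it highly expressed in spermatozoa. bta-miR-125b had an SD of 0.62 and was at position 125 of the 160, although it was far more abundant than the members at 16739. bta-miR-125a, at a mean level of 289, had an SD of 1.24. Both are SDs of sequencing levels, and RT-qPCR values were not examined. bta-miR-191, another common reference, was at position 4 of the 160 with an SD of 0.22. These positions are a description, and differences between the SDs were not tested.

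**Figure D4:**
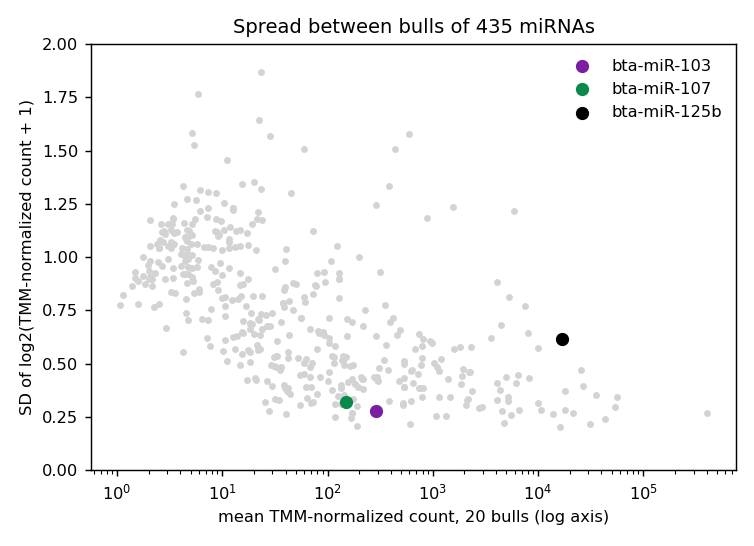
SD over the 20 bulls of log2(TMM-normalized count + 1) (y axis) against the mean TMM-normalized count (x axis, log scale) for the 435 miRNAs tested (grey), with bta-miR-103, bta-miR-107 and bta-miR-125b marked. bta-miR-103 (SD 0.28) and bta-miR-107 (SD 0.32) lie near the lower edge of the cloud at their level, and bta-miR-125b (SD 0.62) lies above most miRNAs of its abundance.

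A difference in spread was examined after the values had been seen. For bta-miR-103, 8 of 10 LF bulls lay between 248 and 275 and LF replicates 18 and 20 at 325 and 323. The SD of the log2 level of bta-miR-103 in LF bulls, 0.14, was the smallest of all 435 miRNAs tested. In HF bulls the SD was 0.36, at position 67 of 435 from the smallest. The mean absolute deviation from the group median was 0.30 in HF and 0.094 in LF bulls, a difference of 0.20 on the log2 scale (permutation test, two-sided, p = 0.0071). Adjusted over the 435 miRNAs its p-value was 0.98, so the difference did not pass. Of all miRNAs, 5 (1.15%) were wider in HF bulls with an unadjusted p-value under 0.05, and 212 of 435 were wider in HF bulls at all. For the summed level the difference was 0.13 (permutation test, p = 0.083). For bta-miR-107 the deviations were 0.24 in HF and 0.26 in LF bulls (permutation test, p = 0.77). The depth of the HF libraries also varied more than that of the LF libraries, from 103204 to 3097581 against 310186 to 1640178 reads. The part of depth in the spread was not tested beyond the libraries of at least 500000 reads. In these the difference for bta-miR-103 was 0.15 (permutation test, p = 0.052).

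Over the 20 bulls, the miRNAs whose log2 levels were most like that of bta-miR-103 were bta-miR-6123 (r = 0.67, mean level 11.8), bta-miR-19b (r = 0.67, mean level 391), bta-miR-30b-5p (r = 0.67, mean level 733), bta-miR-140 (r = 0.67, mean level 651) and bta-miR-107 (r = 0.65). The median r of bta-miR-103 with the 434 other miRNAs was 0.081. For bta-miR-107, bta-miR-103 itself came first, followed by bta-miR-409a (r = 0.63, mean level 3.32), bta-miR-23b-3p (r = 0.62, mean level 171), bta-miR-10174-3p (r = 0.61, mean level 172) and bta-miR-296-5p (r = 0.54, mean level 634), where the median r was 0.025. These values are a description over bulls that share library, depth and normalization factor.

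The members belong to a wider set, the group of miR-15, miR-16, miR-195 and miR-107, whose miRNAs share a stretch of bases at the 5′ end and repress cell cycle genes such as those of cyclins D and E. All 10 bovine miRNAs of this list were in the table. bta-miR-16b, from the cluster within SMC4, was the most abundant at 9991 ± 2108 (SD, n = 20), followed by bta-miR-16a at 4363 ± 1040 (SD, n = 20). Each stood above the next member in 20 of 20 bulls. bta-miR-15b, a neighbour of bta-miR-16b in SMC4, was at 770.0 ± 330 (SD, n = 20) and bta-miR-195 at 538 ± 182 (SD, n = 20), in that order in 14 of 20 bulls only, so these neighbours were not clearly separated.

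bta-miR-103 came next in the group, below bta-miR-195 in 19 of 20 bulls and above bta-miR-107 in 20 of 20. bta-miR-107 was above bta-miR-15a, at 85.5 ± 26.1 (SD, n = 20), in 19 of 20 bulls. bta-miR-15a was above bta-miR-497, at 15.8 ± 5.63 (SD, n = 20), in all 20. bta-miR-424-5p was counted in 8 libraries by at most 2 reads and bta-miR-503-5p in 5 libraries by at most 3 reads, so that both were at or under the floor of 3 reads in every library. Together, bta-miR-103 and bta-miR-107 made up between 1.66% and 4.71% of the summed level of the group, with a median of 2.67%. Levels of different miRNAs also depend on how well each is ligated and amplified, so the order is one of counts.

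**Figure D5:**
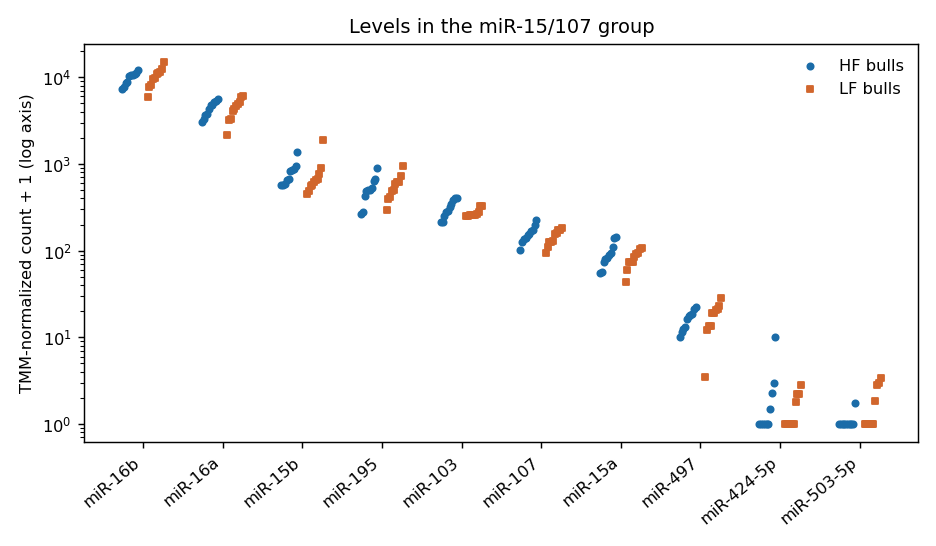
TMM-normalized count + 1 (y axis, log scale) of the 10 miRNAs of the group of miR-15, miR-16 and miR-107, ordered by mean level, in each HF bull (circles) and LF bull (squares). bta-miR-103 and bta-miR-107 follow bta-miR-195, well under bta-miR-16b and bta-miR-16a, and bta-miR-424-5p and bta-miR-503-5p lie lowest, except in HF replicate 17, the shallowest library, where bta-miR-424-5p is at 9.19 like bta-miR-497.

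Of the 8 miRNAs of the group that passed the filter, 0 had an unadjusted p-value under 0.05 between HF and LF bulls in limma, beside 3.45% of all miRNAs tested. Their log2 fold changes ran from -0.12 for bta-miR-195 to 0.17 for bta-miR-15a with a median of 0.083, where the median over all miRNAs was 0.0051. bta-miR-16b had a log2 fold change of -0.032 (95% interval -0.34 to 0.27) and bta-miR-16a of 0.027 (95% interval -0.33 to 0.38). bta-miR-15b was at 0.14 (95% interval -0.30 to 0.59) and bta-miR-497 at 0.011 (95% interval -0.61 to 0.63). For bta-miR-15a and bta-miR-195 the intervals ran from -0.26 to 0.60 and from -0.57 to 0.33.

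Other miRNAs of genes that control metabolism were set beside those of the PANK genes. bta-miR-378, whose gene lies within PPARGC1B, a coactivator of mitochondrial genes, averaged 119 ± 53.1 (SD, n = 10) in HF against 113 ± 33.5 (SD, n = 10) in LF, somewhat below bta-miR-107. limma gave it a log2 fold change of 0.020 (95% interval -0.46 to 0.50, p = 0.93, adjusted p = 0.99). bta-miR-33a, within SREBF2, a regulator of sterol synthesis genes, was counted in 7 libraries by at most 2 reads. bta-miR-33b, within SREBF1, which controls fatty acid synthesis genes, was counted in 0 of 20 libraries, where 3 reads would be a level between 1.19 and 27.6. Of these 3 miRNAs, 1 passed the filter and 0 had a p-value under 0.05.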

How the data were processed

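Small RNA libraries of 20 bulls were sequenced. The authors trimmed adapters (Cutadapt), discarded reads by length and those of other short RNAs, aligned with Bowtie to ARS-UCD1.2 plus a Y chromosome, and quantified miRBase miRNAs by miRDeep2. The table the authors deposited is described as counts but holds a normalized signal, namely counts divided by library size and a TMM factor. Dividing by the value of a read in each library gave whole reads (within 0.02) for 95.0% of values above 0. HF replicate 6 holds a value smaller than a read, so the edgeR likelihood ratio test was also run without it.

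Groups came from the labels, which give no batch or AI center. miRNAs with a level under 1 in at least 10 of 20 libraries were removed, leaving 435. HF was compared with LF by limma 3.58.1 with a variance trend on log2(level + 1) in R 4.3.3, with Benjamini-Hochberg adjustment. edgeR 4.0.16 and DESeq2 1.42.0 on recovered reads were alternatives. Single values were compared by two-sided permutation tests with 100000 resamples (numpy 2.4.6). The tests were tested on simulated data. Named are both members, the group of miR-15, miR-16 and miR-107, miRNAs of metabolic genes, markers, direct neighbours in abundance, the 5 miRNAs most correlated with each member, and bta-miR-100, bta-miR-125b and bta-miR-191, which were added for comparison. The members and lists were chosen with earlier results of these data known. Mature sequences were not used here.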

Additional observations from a re-analysis of the deposited data

Results flagged for a closer look

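In 22 groups of 10 bulls (the members, their sum and ratio, and 7 related miRNAs, in HF and in LF), the highest and the lowest bull were compared with the nearest other bull. The gap, divided by the whole range in the group, exceeded Dixon's 95% critical value in 2 groups, where chance gives about 1.1 (1 in 20 groups). Both concerned bta-miR-15b, and 0 concerned bta-miR-103, bta-miR-107, their sum or their ratio. In HF replicate 14 bta-miR-15b was at 1367, with the next HF bull at 939 (gap 0.534 of the range). In LF replicate 18 it was at 1862, with the next LF bull at 884 (gap 0.691 of the range).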

How the results depend on the processing

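The log2 fold changes of bta-miR-103, bta-miR-107 and their sum stayed positive and short of the thresholds in all 12 alternatives of test, scaling, pseudocount, filter and libraries, between 0.095 and 0.28, 0.077 and 0.23, and 0.087 and 0.25, with p-values of at least 0.081. With each bull left out they lay between 0.11 and 0.21 for bta-miR-103, 0.074 and 0.20 for bta-miR-107, and 0.098 and 0.21 for the sum. The number of miRNAs past both thresholds was 9 of 435, but 4 with a pseudocount of 5, 15 of 731 tested with no filter, 0 of 158 tested with at least 10 reads required in every library (5 had an unadjusted p-value under 0.05) and 17 in the likelihood ratio test without HF replicate 6, against 12 with it, and lay between 7 (without LF replicate 8) and 15 (without HF replicate 6) with each bull left out. The filters change how many miRNAs are tested, and for the others the cause was not tested. In the group of miR-15, miR-16 and miR-107 the number under 0.05 was 0 in all of these.

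The difference of the log2 ratio turned to -0.035 in libraries of at least 500000 reads and lay between -0.029 and 0.077 with each bull left out, without a p-value under 0.05. The correlation between the members lay between 0.56 (without HF replicate 2) and 0.70 with each bull left out. Of the 6 alternatives it fell short of significance in 1, the LF bulls (r = 0.44), for which the cause was not tested. That of bta-miR-103 with depth was weaker without the 2 shallowest libraries (0.46), in LF bulls (0.13) and in libraries of at least 500000 reads (0.43), and that of bta-miR-107 was 0.72 in HF and -0.43 in LF bulls. For the difference in spread, which was chosen after seeing the data, bta-miR-103 gave 0.15 (permutation p = 0.052) in libraries of at least 500000 reads and between 0.17 and 0.23 with each bull left out. bta-miR-107 gave between -0.062 and 0.029, and the sum between 0.094 and 0.15, with p-values under 0.05 without HF replicate 9, HF replicate 16 or LF replicate 18.

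No paired analysis was made, because the HF and LF bulls are different animals and the labels give no pairing between them. HF replicate 17 rests on 23 and 11 reads of the members, so its levels carry the largest counting error.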
